A study of Homo sapiens with 2 samples.

Results

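The SLC25 genes encode the mitochondrial carrier family, and their transcripts were measured in K562 cells overexpressing PML4 and in K562 cells with a control vector. Members were taken as all genes whose symbol is SLC25A followed by a number in GEO's annotation of the array. This gave 45 genes of 19775 with a probe set of their own, read by 96 of 54613 human probe sets. A probe set is a group of short probes on the array that together report 1 transcript signal. SLC25A6, an ADP/ATP exchanger, was not analysed here.

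K562 is a human line, derived from blast-phase chronic myeloid leukaemia, that expresses erythroid genes. The PML4 culture received a retrovirus for PML4, an isoform of the promyelocytic leukaemia protein, and the control culture received the control vector pMSCV, per the labels. Both were then kept under G418 for 3 weeks, so drug selection is shared by the groups. Each group is 1 array, and the labels do not say whether the cells were a pool or a clone. With no replicate array, no test between the groups was possible, no p-value is given, and every difference is one between these 2 arrays.

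Mitochondrial carriers sit in the inner mitochondrial membrane, which is otherwise closed to most metabolites. Each is a bundle of membrane helices built from repeats of a shared unit, and most exchange a solute of the matrix for one of the cytosol. They link ATP synthesis, the citric acid cycle, amino acid and folate metabolism and heme synthesis to the cytosol. In red cell precursors SLC25A37, or mitoferrin-1, brings in iron and SLC25A38 brings in glycine for heme.

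The family as a group differed little between the arrays. Of the 45 members, 38 were measured, which means a signal above a floor of 72.4, the median over both arrays, on at least 1 array. All 38 had a probe set above the floor on both arrays, as did 88.1% of all measured genes, so none of their differences is a bound. A lower signal can mean fewer cells with the transcript or less of it per cell, which cannot be told apart here. Each gene was read from 1 probe set, the measured one whose log2 signals averaged highest. The signal was higher on the PML4 array for 18 members and lower for 20, or 47.4% and 52.6%, against 44.7% and 55.3% of all 12541 measured genes. The median log2 difference, PML4 minus control, was -0.06 for the members and -0.05 for all measured genes. The quartiles of the members lay between -0.27 and 0.29, against -0.32 and 0.21 for all measured genes.

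At the 2-fold threshold for a call, SLC25A48 was higher with PML4 and no member was lower. Across all measured genes, 1.23% were called higher and 3.21% lower, so 1 and 0 of 38 members are counts near the background. At 1.5-fold, 3 members were higher (SLC25A46, SLC25A21 and SLC25A48) and SLC25A10 was lower, where 5.7% and 11.8% of all measured genes were called. The other 34 members lay within 1.5-fold either way. These counts use the values as deposited, and SLC25A10 lay within 1.5-fold once the arrays were rescaled. At 3-fold, SLC25A48 was again the member called, where 0.215% of all measured genes were higher and 0.47% lower.

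**Figure D1:**
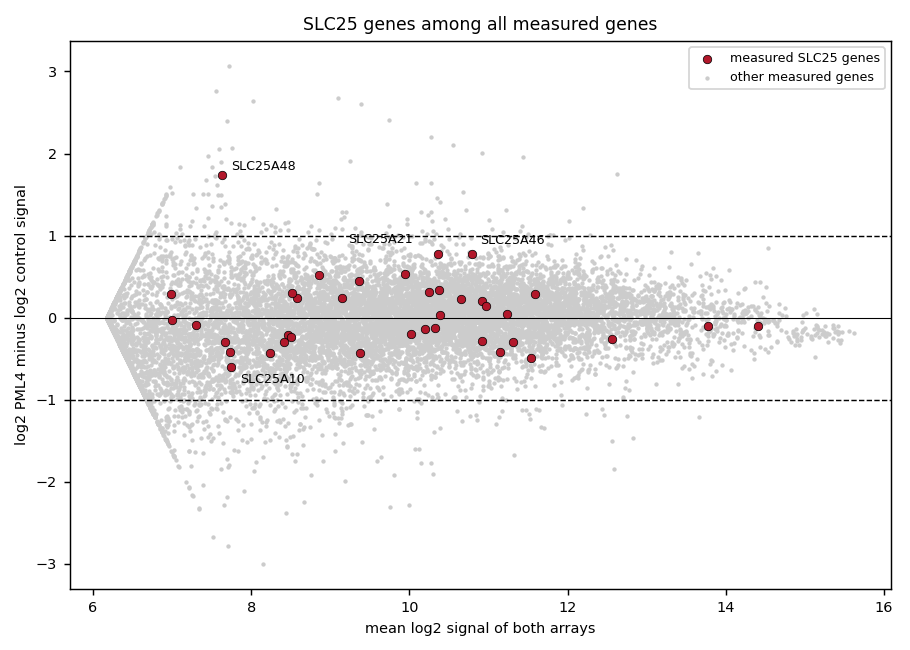
The log2 difference, PML4 minus control, is plotted against the mean log2 signal of both arrays, with 1 point per measured gene, 38 SLC25 genes in red over the other measured genes in grey. Dashed lines mark 2-fold, and SLC25A48 is the red point above the upper line, while the rest lie between -0.60 and 0.78.

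SLC25A48 had the largest difference of the family, and SLC25A21 differed in the opposite direction to its antisense gene SLC25A21-AS1, so the bases before the start sites of these genes are shown first. They come from RefSeq on GRCh38.p14, 5′ to 3′ on the strand of the gene, and are the 250 bases before each start. Capitals mark the 30 bases next to the start site. SLC25A48 has 2 listed start sites 255491 bases apart, with windows at chr5:135578922-135579171 and chr5:135834413-135834662, both on the plus strand. The window of SLC25A21 is on the minus strand at chr14:37172607-37172856. That of its antisense gene is on the plus strand at chr14:37171776-37172025.
SLC25A48, upstream start: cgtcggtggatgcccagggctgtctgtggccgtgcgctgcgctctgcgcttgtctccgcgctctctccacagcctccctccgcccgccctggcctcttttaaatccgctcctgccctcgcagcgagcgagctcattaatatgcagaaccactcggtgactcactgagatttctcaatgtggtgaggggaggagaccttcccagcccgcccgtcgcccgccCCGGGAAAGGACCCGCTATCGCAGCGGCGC
SLC25A48, downstream start: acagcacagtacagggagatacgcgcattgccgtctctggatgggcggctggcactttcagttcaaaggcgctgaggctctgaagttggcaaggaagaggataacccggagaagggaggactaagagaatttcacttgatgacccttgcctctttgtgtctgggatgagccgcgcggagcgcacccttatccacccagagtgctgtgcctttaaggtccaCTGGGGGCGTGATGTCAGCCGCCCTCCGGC
SLC25A21: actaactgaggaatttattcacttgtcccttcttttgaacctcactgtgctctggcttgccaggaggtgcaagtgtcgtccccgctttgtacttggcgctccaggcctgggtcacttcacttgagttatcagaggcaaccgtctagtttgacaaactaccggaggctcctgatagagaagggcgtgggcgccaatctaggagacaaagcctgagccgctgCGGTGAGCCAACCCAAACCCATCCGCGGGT
SLC25A21-AS1: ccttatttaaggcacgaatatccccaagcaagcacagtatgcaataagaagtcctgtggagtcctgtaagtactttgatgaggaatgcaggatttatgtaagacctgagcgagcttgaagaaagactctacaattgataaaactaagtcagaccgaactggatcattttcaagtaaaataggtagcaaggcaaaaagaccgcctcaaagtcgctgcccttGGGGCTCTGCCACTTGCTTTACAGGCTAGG
The window of the upstream SLC25A48 start was 65.6% G and C with 24 CpG pairs, and that of the downstream start was 58% with 13. Which of the starts the array's probes report was not analysed here, because probe positions were not used. The start of SLC25A21-AS1 lies 580 bases inside SLC25A21 and the transcripts run in opposite directions, so the pair overlaps around the start of SLC25A21.

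SLC25A48, a carrier linked to choline import into mitochondria, had a signal of 363.7 on the PML4 array and 109.0 on the control array, a 3.34-fold higher signal and a log2 difference of 1.74. It ranked 20 from the top among the 12541 measured genes. The control value is close to the floor, and the gene is among the 3136 genes of lowest mean signal, of which 2.26% were called higher and 7.24% lower. Its other probe set, 1554542_at, did not reach the floor, at 39.9 with PML4 and 62.0 with the control vector. The call therefore rests on 1 probe set, 231372_at. The only probe set of SLC25A48-AS1, the antisense transcript within this gene, was under the floor on both arrays, at 54.6 with PML4 and 54.5 with the control vector.

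SLC25A21, the carrier of 2-oxoadipate and 2-oxoglutarate in lysine and tryptophan breakdown, had a signal of 1720.2 on the PML4 array and 1006.0 on the control array. This is a 1.71-fold higher signal, read by its only probe set. Its antisense transcript SLC25A21-AS1, which is no member and was chosen after its value was seen, was at 69.6 with PML4 and 203.1 with the control vector. It was at least 2.81-fold lower, a bound because the PML4 value lies under the floor. The sense and antisense signals thus differed in opposite directions, and the strand that each probe set reports was not analysed here. Antisense genes of other members did not show that size: SLC25A25-AS1 was at 702.2 and 804.5 and SLC25A5-AS1 at 146.3 and 121.3, with PML4 and with the control vector.

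**Figure D2:**
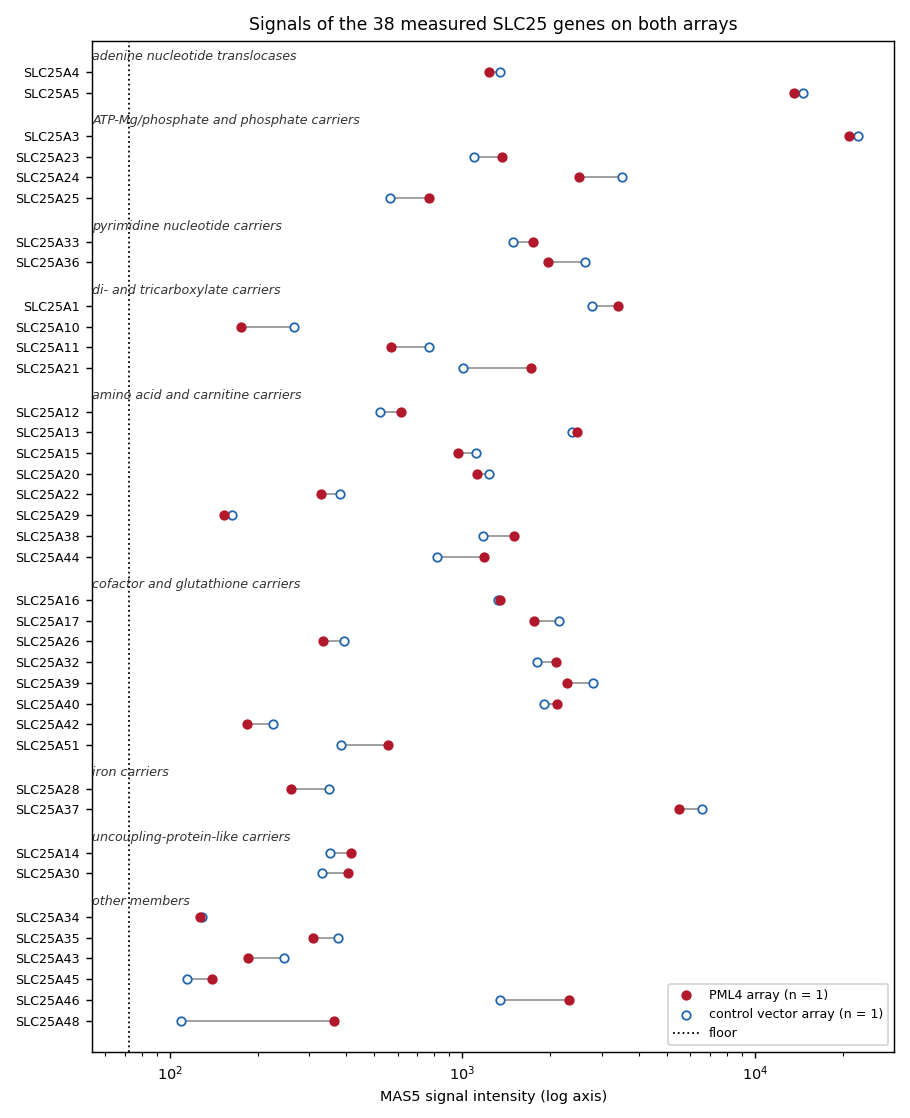
MAS5 signal intensity is shown on a log axis for the 38 measured SLC25 genes, grouped by the solutes they carry, with filled red points for the PML4 array and open blue points for the control array. Signals of different genes come from different probes and are not comparable in level, so the length and direction of each line is what can be read, and the line of SLC25A48 is the longest.

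Carriers of adenine nucleotides and phosphate, which supply ATP synthesis and export its product, were close on the arrays. SLC25A5, an ADP/ATP exchanger of dividing cells, was at 13560.1 with PML4 and 14547.6 with the control vector, and SLC25A4, the exchanger of heart and muscle, was at 1230.5 and 1343.0. SLC25A3, which imports phosphate, was at 20896.7 with PML4 and 22502.2 with the control vector. These log2 differences, -0.10, -0.13 and -0.11, are smaller than the median gap of 0.29 between probe sets of 1 gene. That gap, taken over 16239 pairs of probe sets in 5453 genes, is the only measure of spread that these arrays allow, and it covers neither arrays nor cultures. SLC25A31, the ADP/ATP exchanger of the testis, was under the floor, at 4.4 and 14.1.

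The calcium-regulated exchangers of ATP-Mg for phosphate, which set the nucleotide pool of the matrix, did not differ in 1 direction. SLC25A24 was at 2500.6 with PML4 and 3502.4 with the control vector, 1.40-fold lower. Its other measured probe set was lower too, a bound, since its PML4 value, 48.5, lies under the floor. SLC25A25 was at 769.1 with PML4 and 566.0 with the control vector, 1.36-fold higher. SLC25A23 was read by a pair of probe sets that disagreed: 226010_at had a log2 difference of 0.32 and 220182_at one of -0.33. SLC25A41, of the same subgroup, was under the floor on both arrays, at 19.4 with PML4 and 58.8 with the control vector.

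The carriers of pyrimidine nucleotides, needed for mitochondrial DNA and RNA, differed in opposite directions. SLC25A36 was lower with PML4 in all 4 of its measured probe sets, at 1955.8 against 2616.4 in the one that stands for the gene, a 1.34-fold difference. Its other probe sets were at 1965.3 against 2370.6, at 1870.3 against 2699.4 and at 122.6 against 261.3, the last a log2 difference of -1.09. SLC25A33 was at 1749.8 with PML4 and 1488.1 with the control vector, 1.18-fold higher. Among all measured probe sets, 3.22% were lower by at least 2-fold and 1.3% higher, and of the 69 measured member probe sets 1 was lower and 2 higher.

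As deposited, carriers of citric acid cycle intermediates held the members that differed most apart from SLC25A48 and SLC25A46, namely SLC25A21 and SLC25A10. After quantile normalization SLC25A10, at -0.46, lay behind other members. Among these were SLC25A51, SLC25A24 and SLC25A44, at 0.59, -0.53 and 0.52. SLC25A10, which exchanges malate and succinate for phosphate, was at 174.6 with PML4 and 264.9 with the control vector, 1.52-fold lower. SLC25A11, the oxoglutarate carrier of the malate-aspartate shuttle, was at 570.6 with PML4 and 767.7 with the control vector, and both of its probe sets were lower. SLC25A1, which exports citrate for lipid synthesis, was at 3394.6 with PML4 and 2782.3 with the control vector, 1.22-fold higher. The group thus spans log2 differences from -0.60 to 0.77, with SLC25A21 at the upper end.

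Among 10 carriers of amino acids and carnitine, 8 were measured, 4 with a higher and 4 with a lower signal. SLC25A44, a carrier of branched-chain amino acids, was at 1185.8 with PML4 and 821.6 with the control vector, while a further probe set read 510.0 and 295.7. Both were higher, by log2 differences of 0.53 and 0.79. SLC25A38, the glycine carrier, was at 1496.0 with PML4 and 1179.9 with the control vector, 1.27-fold higher. The aspartate/glutamate carriers SLC25A12 and SLC25A13, the partners of SLC25A11 in the malate-aspartate shuttle, had log2 differences of 0.25 and 0.05, and the other measured probe set of each was higher as well.

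The remaining amino acid carriers had small or contradictory differences. SLC25A22, a glutamate carrier, was at 327.9 with PML4 and 380.2 with the control vector. SLC25A20, which exchanges carnitine for acylcarnitine in fatty acid oxidation, was at 1122.1 with PML4 and 1230.2 with the control vector. SLC25A15, the ornithine carrier of the urea cycle, and SLC25A29, a carrier of basic amino acids, each had probe sets that disagreed, with log2 differences of -0.19 and 0.61 for SLC25A15 and of -0.09 and 0.81 for SLC25A29. The 0.61 of SLC25A15 is a bound, with the control value under the floor. SLC25A2, an ornithine carrier close to SLC25A15, and SLC25A18, another glutamate carrier, were under the floor on both arrays.

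Cofactor and glutathione carriers were measured in all 8 cases and split evenly. SLC25A51, the NAD carrier, was at 554.9 with PML4 and 385.5 with the control vector, 1.44-fold higher, while a further probe set read 153.3 and 118.6. SLC25A32, which carries folate, was at 2080.9 with PML4 and 1803.1 with the control vector. SLC25A26, which brings in S-adenosylmethionine, was at 333.3 with PML4 and 393.8 with the control vector. The glutathione carrier SLC25A39 and its close relative SLC25A40 differed in opposite directions, at 2283.1 against 2804.6 and at 2100.7 against 1896.0.

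SLC25A17, the carrier of the family found in peroxisomes, was lower in both probe sets, by log2 differences of -0.28 and -0.60. SLC25A42, a coenzyme A carrier, was at 182.9 with PML4 and 224.6 with the control vector. SLC25A16, a carrier linked to coenzyme A supply, had 4 measured probe sets with log2 differences between -0.70 and 0.03, 2 higher and 2 lower. The -0.70 is a bound, since the PML4 value of that probe set, 60.3, lies under the floor.

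Both iron carriers had a lower signal with PML4 in the probe set that stands for the gene. SLC25A37, the iron carrier of erythroid cells, was at 5492.3 with PML4 and 6598.9 with the control vector, 1.20-fold lower. Of its 9 measured probe sets 6 were lower and 3 higher, and the log2 differences ran from -0.88 to 1.08, the widest range of any member. The probe set at 1.08, 231078_at, was at 173.6 with PML4 and 81.9 with the control vector, and the one at -0.88, 242335_at, at 868.1 and 1601.9. SLC25A28, or mitoferrin-2, which serves iron import outside the erythroid lineage, was at 259.4 with PML4 and 350.3 with the control vector, 1.35-fold lower, with its other measured probe set at 223.9 and 257.5.

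The carriers related to uncoupling proteins, SLC25A14 and SLC25A30, were slightly higher, by log2 differences of 0.24 and 0.30, and both probe sets of SLC25A14 were higher. SLC25A27, the neuronal relative, was under the floor in all 5 of its probe sets. SLC25A46, which acts at the outer membrane in mitochondrial fusion and fission, was at 2314.7 with PML4 and 1346.0 with the control vector, 1.72-fold higher. Its other probe set was at 1928.4 with PML4 and 1533.2 with the control vector, 1.26-fold higher. In contrast, SLC25A43 was at 185.0 with PML4 and 246.2 with the control vector, and SLC25A35 at 308.1 and 376.9. SLC25A34 and SLC25A45 had log2 differences of -0.03 and 0.29 at signals near the floor. SLC25A47, a liver carrier, and SLC25A53 were under the floor on both arrays.

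**Figure D3:**
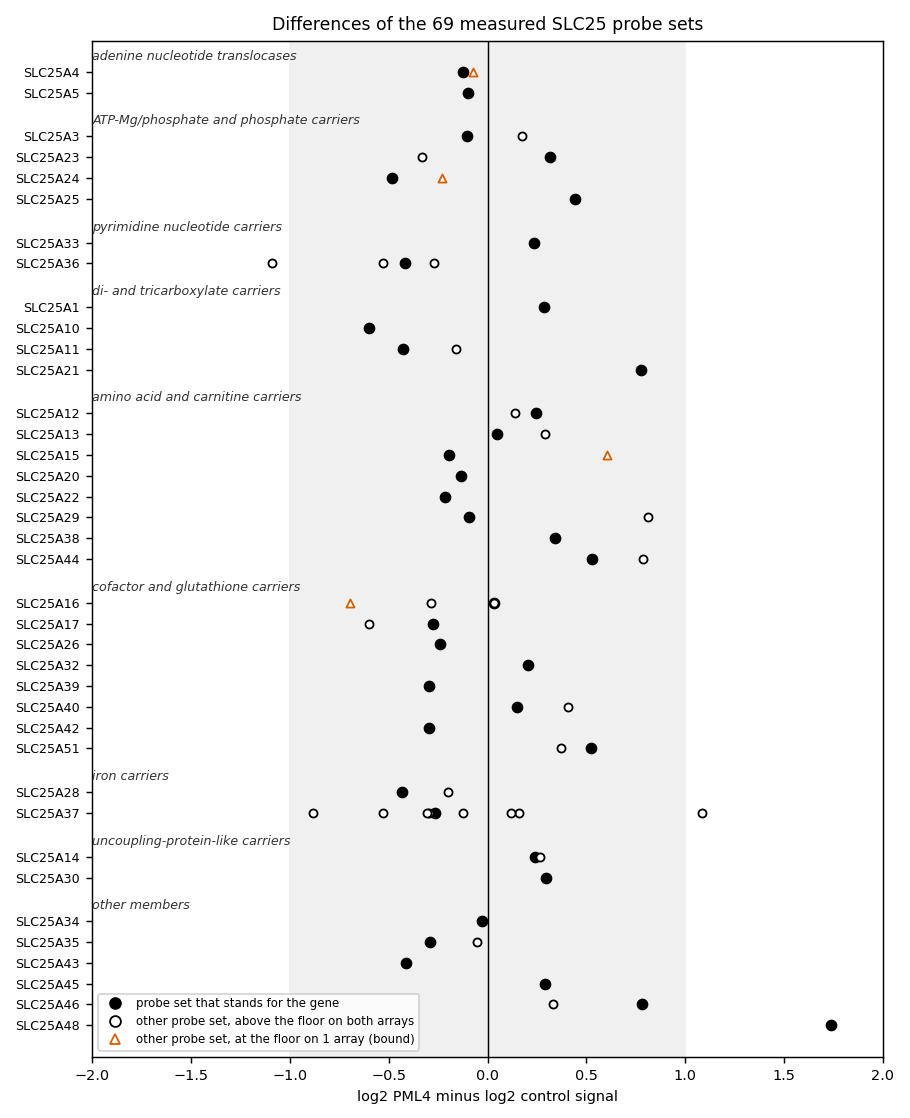
Each point is the log2 difference, PML4 minus control, of 1 of the 69 measured SLC25 probe sets, in the row of its gene. Filled circles stand for the gene, open circles are other probe sets and orange triangles are bounds with 1 array at the floor, and the grey band spans less than 2-fold, with SLC25A37 having the widest row.

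Probe sets of 1 gene agreed in direction for 14 of the 20 members that had several measured, or 70%. The share was 51.5% of 6143 such genes on the array. SLC25A3, SLC25A15, SLC25A16, SLC25A23, SLC25A29 and SLC25A37 were the members that disagreed. These counts include probe sets at the floor on 1 array, as in SLC25A4 and SLC25A24, and the shares were not matched for signal level. The median gap was 0.36 on the log2 scale over 59 pairs of member probe sets, against 0.29 over all genes. Only pairs that exceeded the floor on each array were counted. Most of the 59 pairs come from SLC25A37, which has 9 measured probe sets and the widest range of differences. The 0.36 thus mainly describes that gene, and does not show that the family's probe sets scatter more than those of other genes. The other 18 measured members, among them SLC25A48, SLC25A21 and SLC25A10, were read by 1 measured probe set and lack a check between probe sets.

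The bases around the start site were searched for motifs in 33 of the 38 measured members, those that the RefSeq table holds, with 250 bases before and 50 after each of 43 starts. The E-box CACGTG, bound by MYC and related factors, was found in 8 of the 43 windows, or 18.6%, and in 7.26% of all 35116 windows of that length, which include noncoding genes. These windows belong to 8 members, of which 5 had a positive and 3 a negative difference with PML4. SLC25A46 is the one of them with the largest difference, and its E-box, in capitals below, starts 47 bases before the start site on the plus strand at chr5:110738757-110739006.
SLC25A46: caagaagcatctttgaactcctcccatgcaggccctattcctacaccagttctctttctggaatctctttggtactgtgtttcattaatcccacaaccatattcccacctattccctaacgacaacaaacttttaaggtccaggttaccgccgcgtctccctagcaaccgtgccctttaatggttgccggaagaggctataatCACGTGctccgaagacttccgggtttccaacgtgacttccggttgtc
TGATGNAA, the core of the element bound by ATF4 with C/EBP factors, was in 1 member window, that of SLC25A11, and in 3.62% of all windows. The core motif of NRF1, a regulator of mitochondrial genes, was in no member window and in 1.24% of all windows. Both strands were searched, and a match is a description of the letters alone. The windows of SLC25A48 and SLC25A21 held none of these motifs.

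Genes of the same family that carry other names, and the machinery that imports carriers, held no call at 2-fold. UCP2, an uncoupling protein, was at 2979.0 with PML4 and 3353.1 with the control vector, and MTCH1 and MTCH2, outer membrane relatives, had log2 differences of 0.10 and 0.24. UCP1 and UCP3 were under the floor. Carriers reach the inner membrane through the TOM pore, small chaperones of the intermembrane space and the TIM22 complex. Of 13 genes of this route, all measured, 9 had a higher and 4 a lower signal, none was called, and the median was 0.24. Of all measured genes 44.7% were higher, with a median of -0.05 and an upper quartile of 0.21. The calls among them were 1.23% higher and 3.21% lower. The import list thus lay somewhat higher than the array as a whole, which was not tested. TOMM20, an import receptor, was at 17779.4 with PML4 and 23336.2 with the control vector, and TIMM8B, one of the small chaperones, at 7340.5 and 5728.0.

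Other transport routes across the mitochondrial membranes held 1 call, higher, in 12 measured genes, with a median of 0.11. Across all measured genes 1.23% were called higher, and 1 call in so short a list says little. MPC2, a subunit of the pyruvate carrier, which is not of the SLC25 family, was at 7089.3 with PML4 and 3515.4 with the control vector, 2.02-fold higher. The other subunit, MPC1, was at 3356.1 with PML4 and 2277.4 with the control vector, 1.47-fold higher, while a further probe set of MPC1 was lower. The outer membrane channels VDAC1, VDAC2 and VDAC3 had log2 differences of -0.20, -0.15 and 0.13.

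Of 17 measured enzymes that work on the solutes of these carriers, 8 had a higher and 9 a lower signal and none was called. Across all measured genes 44.7% were higher and 55.3% lower, and 1.23% and 3.21% were called. MTHFD2 was at 12939.4 with PML4 and 19214.2 with the control vector, 1.48-fold lower. SHMT2 was at 7999.2 and 10609.4, 1.33-fold lower. GOT1, the cytosolic aspartate aminotransferase of the malate-aspartate shuttle, was at 996.1 with PML4 and 1637.5 with the control vector, 1.64-fold lower. GOT2, MDH1 and MDH2 of the same shuttle had log2 differences of 0.20, 0.36 and -0.24. ACLY, which cleaves the citrate that SLC25A1 exports, was at 7416.4 with PML4 and 5188.1 with the control vector. ALAS1, an enzyme for the first step of heme synthesis, and FECH, the enzyme of the last, had log2 differences of 0.46 and -0.28.

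Genes of the ATF4 pathway, which answers amino acid shortage and mitochondrial stress, are set beside the family because they differed far more. Of 11 measured genes 7 were called lower and none higher, with a median of -1.21, against 3.21% and 1.23% of all measured genes and a median of -0.05. CHAC1, which degrades glutathione, was at 152.8 with PML4 and 792.3 with the control vector, 5.19-fold lower, and ATF4 itself was at 12011.1 and 18865.1, 1.57-fold lower. The other called genes, DDIT4, ATF5, DDIT3, TRIB3, ASNS and PHGDH, were between 2.28-fold and 3.60-fold lower. This list was written with its values on these arrays known, so its direction is no independent evidence. Whether the family and this pathway differ as groups was not tested.

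**Figure D4:**
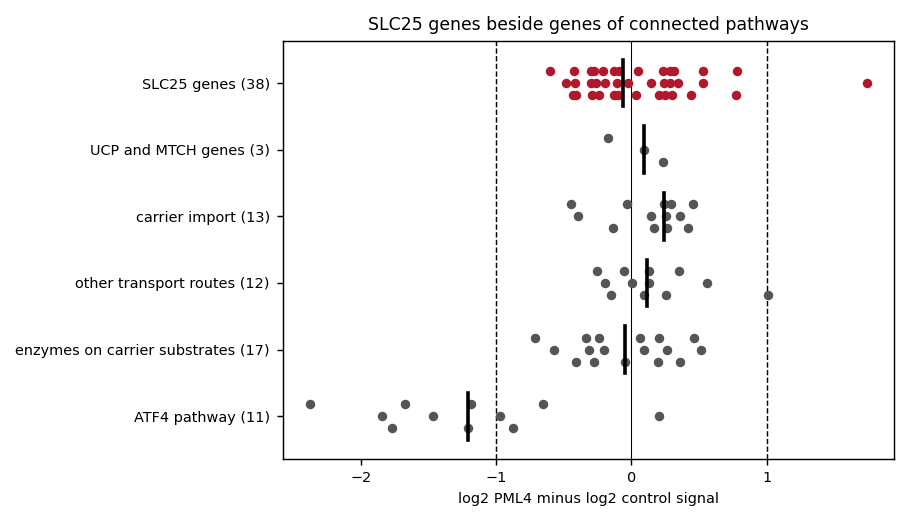
Each point is the log2 difference, PML4 minus control, of a measured gene, with the SLC25 genes in red above 5 lists of connected genes in grey. Thick lines are medians, -0.06 for the SLC25 genes and -1.21 for the ATF4 pathway, dashed lines mark 2-fold, and the number of genes is in brackets.

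The median human probe set had a signal of 64.0 on the PML4 array and 80.6 on the control array. PML was read by 10 probe sets, of which 2 were at least 2-fold higher with PML4, led by 210362_x_at at 698.5 against 98.1, and 1, 206503_x_at, was lower, at 156.5 against 927.2. The PML probe sets disagree, and their positions relative to the PML4 cDNA were not used. They therefore do not check the label of the PML4 array. All 10 K562 markers with a probe set of their own, among them GATA1 and HBE1, were measured, 7 with a positive and 3 with a negative difference and a median of 0.34. HBZ, embryonic zeta-globin, was at 5465.5 with PML4 and 1401.4 with the control vector, and TFRC, the transferrin receptor that takes up iron, at 31653.7 and 17625.2. EPOR, the erythropoietin receptor, was lower, at 364.8 with PML4 and 760.3 with the control vector, although 1 of its probe sets was higher. HBZ and EPOR were past 2-fold, a larger difference than in the probe sets that stand for SLC25A28, SLC25A37 and SLC25A38. Probe set 231078_at of SLC25A37, with a log2 difference of 1.08, was past 2-fold too. The part of these markers in the carriers' values was not tested. Of 7 markers of other cell types 5 were under the floor on both arrays. CD3E was above it on the control array only, at 55.3 with PML4 and 105.9 with the control vector, and EPCAM was at 6203.1 and 5870.4.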

How the data were processed

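RNA from 2 cultures, 1 array each, was labelled from 6 µg per sample, per the labels. The deposited values are linear signal intensities that the authors made with MAS5, per the submitters' processing notes. Its version is not given in the sources used here. MAS5 combines matched and mismatched probes and scales arrays to a common target, and detection calls were not used here. Such scaling cannot show a shift shared by all transcripts.

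Genes came from GEO's platform annotation, with symbols updated through Entrez IDs to RefSeq, which matched 41037 of 41091 probe sets with 1 gene. Another 1801 probe sets had several genes and 11721 had none, and neither kind was named. The annotation names no genome build, so probe sets have no coordinates here, and the start-site windows have those of RefSeq on GRCh38.p14. Lower signals were set to the floor before log2, and each gene was read from its brightest measured probe set over both arrays. A call is a 2-fold difference. The rule named every SLC25 member, called genes and bright examples of the connected lists, and promoters of called members. The promoters of SLC25A21, SLC25A21-AS1 and SLC25A46, and further genes of the connected lists, were added after the values were seen. Members and lists were chosen with earlier results of these data known. Close paralogs can share signal. The computation used Python 3.11.15, pandas 2.3.3 and statsmodels 0.14.6, and was tested on simulated data with 200 changed genes. Those genes lay well above the floor, so the simulation does not cover signals near it, such as those of SLC25A48. Precision is limited by having 1 array per group.

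The alternatives tried set the floor at another percentile (25 or 75) or replaced it by a pseudocount of 32. Others rescaled the arrays by the median gene, by quantiles or by loess (span 0.4), or averaged a gene's probe sets. The rest dropped the probe set types _x_at and _s_at, or called genes at 1.5-fold or 3-fold.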

Additional observations from a re-analysis of the deposited data

How the results depend on the processing

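No paired analysis was possible because each group has 1 array. SLC25A48 was called higher, and was the only such member at 2-fold or 3-fold, in every setting except the floor at the 75th percentile, where its signals lie under the floor and 0 of 25 measured members were called higher. Its log2 difference ran from 1.49 to 1.91 over the settings that measured it. Calls at 1.5-fold, made on the values as deposited, gave 3 higher members and 1 lower. That lower member, SLC25A10, lay within 1.5-fold after rescaling by the median gene (-0.55), by quantiles (-0.46) or by loess (-0.46). SLC25A51 passed 1.5-fold by a small margin after rescaling by quantiles or by loess, at 0.59 in both. The floor at the 25th percentile gave 2 lower members, SLC25A27 and SLC25A41, among 43 measured, or 4.65%, against 11.4% of 17590 genes, at signals that lie under the floor used in the report. No other setting called a member lower. The members' median lay between -0.11 and 0.05, and that of all measured genes between -0.09 and 0.02. Of 287 member values under alternatives, 6 moved by more than the spread of 0.29 between probe sets, all by reading other probe sets, in SLC25A15, SLC25A16, SLC25A17, SLC25A23 and SLC25A29. The sign of the difference changed in at least 1 setting for 6 members, SLC25A3, SLC25A15, SLC25A16, SLC25A23, SLC25A29 and SLC25A34, and was kept in 32. SLC25A29 moved most, with a log2 difference of 0.81 once the types _x_at and _s_at were dropped. Across all genes, 154 were called higher and 402 lower as deposited, against 196 and 281 after quantile normalization and 201 and 265 after loess centring. The floors at the 25th and 75th percentile gave 667 and 2000, and 50 and 63, while calls at 1.5-fold and 3-fold gave 715 and 1484, and 27 and 59. Signals near the floor limit SLC25A29, SLC25A34, SLC25A42, SLC25A45 and SLC25A48 most, and the error between cultures could not be measured.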
